A study of Mus musculus with 38 samples.

Results

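The EGF receptor (EGFR) ligands and receptors described here were 6 ligand genes, Areg (amphiregulin), Ereg (epiregulin), Hbegf (heparin-binding EGF-like growth factor), Tgfa (transforming growth factor alpha), Btc (betacellulin) and Epgn (epigen), and 3 receptor genes, Egfr, Erbb2 and Erbb3. They were chosen by gene name and made up 9 of the 46078 gene rows in the deposited count files. Counts came from RNA sequencing of isolated mouse intestinal epithelium, with 38 libraries, 1 per C57BL/6 animal. KO animals (Hk2ΔIEC) carried floxed Hk2 alleles and a Cre recombinase driven by the Villin promoter, which deletes hexokinase 2 only in cells where that promoter is active, and WT animals were Hk2fl/fl littermates. There were 4 WT and 5 KO animals at day 0 (untreated), 7 WT and 8 KO at day 3, and 7 WT and 7 KO at day 7 of dextran sodium sulfate (DSS), a polysaccharide that damages the colon lining. Per the labels, DSS was given at 1.5% in drinking water to co-housed males aged 10 to 12 weeks. Mice for basal work were 9 to 11 or 86 to 92 weeks old, and the labels do not say which ages the day 0 animals had.

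EGF family ligands are made as membrane-anchored precursors that proteases such as ADAM17 and ADAM10 release. The soluble ligand binds EGFR, which pairs with itself, ERBB2 or ERBB3 and turns on the ERK and PI3K arms. ERBB2 has no known ligand of its own, and ERBB3 binds neuregulins and has little kinase activity. In the intestine this pathway is known for driving epithelial proliferation and wound closure, and amphiregulin and epiregulin are known to rise in injured mucosa.

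Of the ligand genes, 4 lie in a cluster of 375.5 kb on chromosome 5 of the GRCm38 build, in the order Epgn, Ereg, Areg and Btc. Epgn spanned chr5:91027464-91035215, Ereg chr5:91074622-91093646 and Areg chr5:91139599-91148432, all on the plus strand, and no other gene of the files lay between them. Btc, on the minus strand at chr5:91357261-91402994, was 208.8 kb further on, past 2 other genes. Tgfa, Egfr, Erbb2, Erbb3 and Hbegf lie on other chromosomes. Reads were counted without strand, and 141 exonic bases of Ereg are shared with an antisense gene, so reads from those bases cannot be assigned to either.

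The 250 bases before the start of 3 ligand genes are shown. These genes were picked by how far their change between days 3 and 7 differed between 2 ranges of animal numbers. The ranges are described below and were set after the levels had been seen. The difference was 1.82 log2 units for Areg, 0.025 for Tgfa and 0.11 for Btc. The sequences come from RefSeq (GRCm38.p6) and run 5′ to 3′ on the strand of the gene. Its promoter table matched 6 of the 9 members and held no entry for Ereg, Hbegf and Erbb3. Capitals mark a cyclic AMP response element (CRE, TGACGTCA) and a TATA box (TATAAA).
Areg, chr5:91139349-91139598, plus strand: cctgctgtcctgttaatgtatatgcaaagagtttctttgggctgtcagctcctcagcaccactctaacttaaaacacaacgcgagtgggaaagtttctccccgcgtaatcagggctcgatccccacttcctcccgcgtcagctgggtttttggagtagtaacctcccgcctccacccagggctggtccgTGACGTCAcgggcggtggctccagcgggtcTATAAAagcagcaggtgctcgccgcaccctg
Tgfa, chr6:86194972-86195221, plus strand: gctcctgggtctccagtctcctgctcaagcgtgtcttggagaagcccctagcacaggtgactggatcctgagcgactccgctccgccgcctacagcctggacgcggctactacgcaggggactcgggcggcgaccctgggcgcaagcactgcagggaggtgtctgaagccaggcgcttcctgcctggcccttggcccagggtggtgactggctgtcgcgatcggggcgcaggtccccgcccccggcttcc
Btc, chr5:91402995-91403244, minus strand: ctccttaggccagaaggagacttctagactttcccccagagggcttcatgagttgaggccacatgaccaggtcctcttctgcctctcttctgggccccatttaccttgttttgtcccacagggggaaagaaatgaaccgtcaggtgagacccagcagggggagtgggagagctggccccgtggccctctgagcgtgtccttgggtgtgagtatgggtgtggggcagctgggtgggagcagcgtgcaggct

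The CRE of Areg lay 61 to 54 bases before the RefSeq start and its TATA box 31 to 26 bases before it. On either strand, TGACGTCA was present in 1.546% and TATAAA in 12.37% of the 32851 promoter windows of that length. The AP-1 motif TGANTCA (6.749% of windows) and the TEAD motif GGAATG (12.64%) were searched as well. No match of the 4 motifs lay in the windows of Tgfa, Btc or Egfr, Epgn had TATAAA at 86 to 81 bases and Erbb2 had GGAATG at 88 to 83 bases before the start. The RefSeq start of Tgfa is not a transcript start in GENCODE M21, the annotation used for gene types. The windows of Epgn and Erbb2 held 53 and 14 bases of its exons, as both annotated genes begin before their RefSeq starts. Their motif positions are counted from the RefSeq starts. Epgn, whose day change differed by 1.99 (SE 0.64) between the ranges, had no CRE. Hbegf (1.76) and Ereg (1.53) also differed and had no window to search. A match is a description of these letters only, and its part in any change was not tested.

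Total counts were 10.5 to 60.6 M (mega) per library, and 3 counts, taken as the smallest level a library could show, corresponded to 0.0495 to 0.286 CPM. Levels are given as CPM, counts per M total counts with TMM scaling. Hk2 was 31.2 to 111 CPM in KO and 247 to 439 CPM in WT at day 0, and the genotypes overlapped on the other days. Libraries are named by their titles, which give day, genotype and animal number. The library labelled d3_KO_345 had 440 CPM of Hk2, above all WT libraries of day 3 (99.3 to 224 CPM), and the other KO libraries of day 3 had 70.9 to 131 CPM. At day 7 Hk2 was 56.6 to 260.5 CPM in KO and 231 to 598 CPM in WT, and the highest KO library, labelled d7_KO_420, lay within the WT range. The gene Tdpx-ps1 separated the labelled genotypes on day 7, at 1.44 to 2.20 CPM in KO (1.58 in d7_KO_420) and at most 0.281 CPM in WT. On day 3 d3_KO_345 had 0.042 CPM of it, within the WT range (at most 0.135), and the other KO libraries had 1.65 to 2.59 CPM. At day 0 it did not separate the genotypes, as d0_KO_24 had 0.0607 CPM, d0_KO_32 and d0_KO_60 had 0 and d0_WT_43 had 0.84. Whether a label is wrong was not tested. Mitochondrial genes took 61.7% of the counts of d0_KO_32 and 9.15% to 18.8% in the other day 0 libraries. Counts of called members and the members' values that moved most are also given without these 3 libraries. All 9 epithelial and all 7 colon marker genes had counts in every group, as did the 9 small intestine markers at lower sums (155 to 1220 CPM). The highest of these sums was that of d3_WT_381, which also had the highest mitochondrial share of days 3 and 7 (41.7%). It had the lowest Egfr of day 3 (30.4 CPM), and was left out only in turn with every other animal. Summed leukocyte markers (9 of 9 detected) were 16.9 to 32.3 CPM at day 0, 12.0 to 84.6 at day 3 and 50.4 to 278 at day 7. Among the 7 neutrophil markers Ly6g stood apart, with 1.33 to 33.3 CPM at day 0, 8.03 to 114 at day 3 and 42 to 375 at day 7. The other 6 summed to 0.140 to 3.38 CPM at day 0, to at most 34.9 CPM at day 3 (at most 3.01 without d3_KO_345) and to 31.9 to 1353 CPM at day 7. In such preparations fewer cells of a type and less RNA per cell cannot be told apart. The day 0 libraries carry another library prefix than the rest, so day 0 and that library series cannot be told apart. Age may differ as well, since day 0 animals may have been 86 to 92 weeks old and DSS animals were 10 to 12. This limit holds for every comparison with day 0 below.

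Per kb of exon, the 9 genes covered a wide range, and the order at day 0 differed from that at days 3 and 7. At day 0 in WT, Erbb3 (median 93.0 CPM per kb), Areg (92.1) and Hbegf (87.5) led with overlapping ranges. They were followed by Erbb2 (43.9), Egfr (6.35), Tgfa (3.91), Btc (1.30), Ereg (0.475) and Epgn (0.0446), each apart from the next. The order was the same in KO at day 0. At days 3 and 7 Hbegf and Areg came first in all 4 groups, with median levels of 160 to 199 and 145 to 181 CPM per kb, and their ranges overlapped. Erbb3 and Erbb2 came next and overlapped, then Tgfa and Egfr, which also overlapped, and Epgn was last in every group. The summed level of the 6 ligands had a median of 361.1 CPM in WT and 295 CPM in KO at day 0, and of 630 to 819 CPM in the DSS groups. The summed level of the 3 receptors had medians of 865.5 and 909 CPM at day 0 and of 556 to 738 CPM in the DSS groups.

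**Figure D1:**
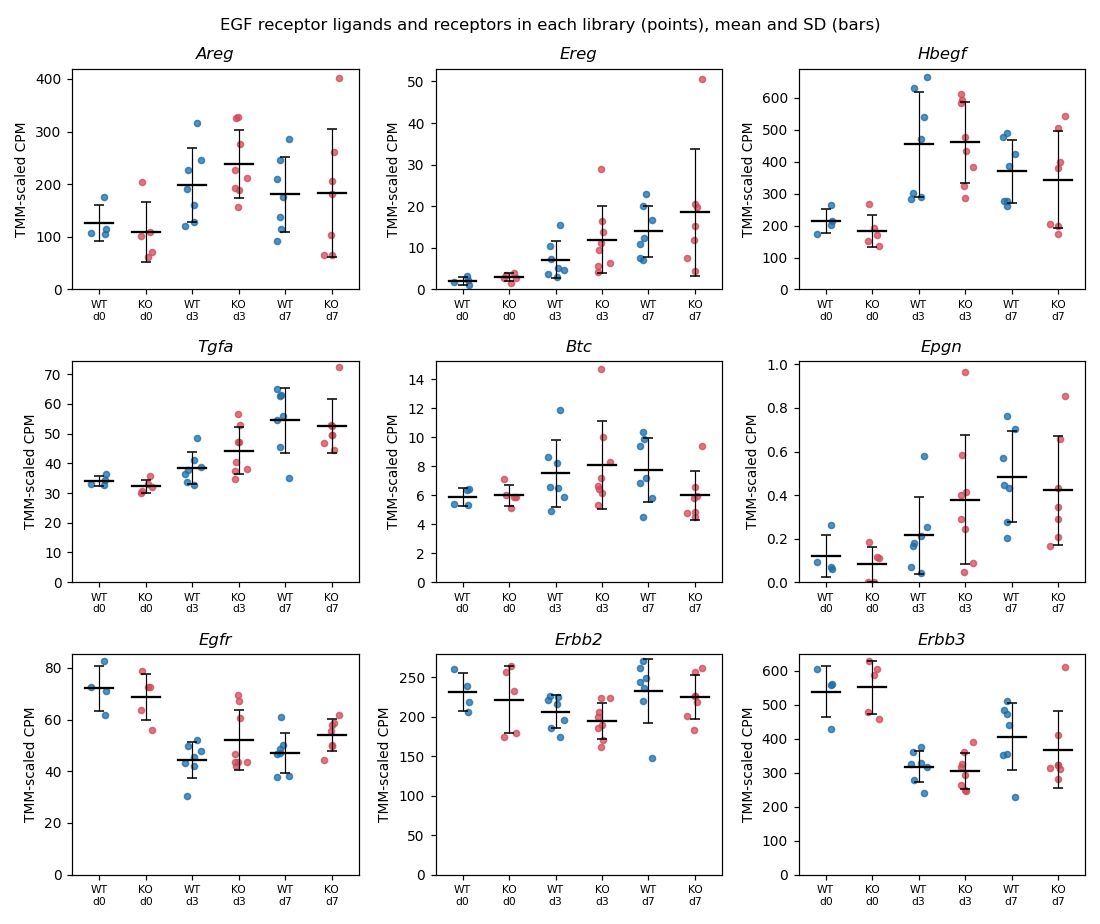
TMM-scaled CPM of each member (linear vertical axes from 0) in the 6 genotype-by-day groups on the horizontal axis; points are libraries, WT in blue and KO in red, with the mean and SD as bars. Hbegf on day 3 reaches 665 CPM and Erbb3 on day 0 reaches 628 CPM, and Epgn stays under 1 CPM throughout.

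**Figure D2:**
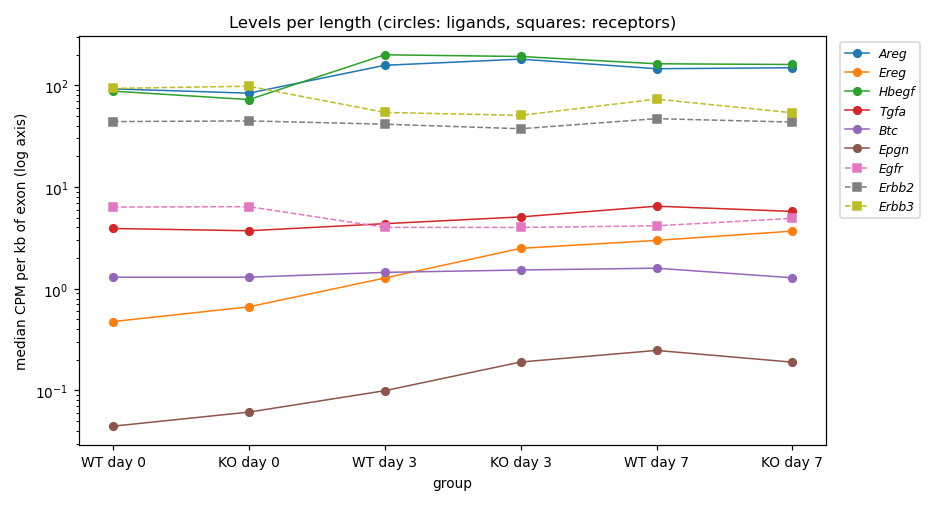
Median CPM per kb of exon (log axis) of each member in the 6 groups on the horizontal axis, ligands as circles with solid lines and receptors as squares with dashed lines; lines only join values of the same gene. Erbb3 is highest at day 0, and Hbegf and Areg are highest in the 4 DSS groups.

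Against day 0, every called ligand was higher and every called receptor lower, in both genotypes and on both days. At day 3 in WT, 2 ligands were called higher (Ereg and Hbegf) and 2 receptors lower (Egfr and Erbb3) among the 8 members tested. In KO, 4 ligands were called higher (Areg, Ereg, Hbegf and Tgfa) and 3 receptors lower among 9 tested. Genes with an edgeR quasi-likelihood adjusted p under 0.05 were called, and the same rule called 46% of 17152 genes in WT and 46.3% of 16010 in KO, so calls were common. By direction these were 20.4% higher with 25.6% lower for WT, and 22.6% higher with 23.7% lower for KO. At day 7, each genotype had the same 4 ligands higher (Ereg, Hbegf, Tgfa and Epgn) and the same 2 receptors lower (Egfr and Erbb3) among 9 tested, where 56.9% of 17428 genes in WT (27.8% higher, 29.2% lower) and 54.6% of 16367 in KO (27.3% in each direction) were called. Of these, Epgn was near the detection floor at day 0, so it could only be called higher. The median log2 change of the members was 0.17 in WT and 0.33 in KO at day 3, and 0.44 and 0.59 at day 7. Over all genes tested the medians were 0.025, 0.0060, 0.0076 and 0.0063.

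Ereg, which binds EGFR and ERBB4, had the steepest rise among the ligands well above the detection floor. It was 1.12, 1.69, 2.24 and 3.15 CPM in the WT animals at day 0, and 1.58, 2.66, 2.74, 3.53 and 4.06 CPM in the KO animals. The lowest, median and highest values at day 7 were 7.10, 12.3 and 23.1 CPM in WT and 4.51, 15.2 and 50.6 CPM in KO. No day 7 library overlapped the day 0 libraries of its genotype. The log2 change from day 0 was 2.66 in WT and 2.56 in KO at day 7 (SE 0.40 and 0.55, edgeR adjusted p 9.8e-05 and 0.00135). At day 3 it was 1.67 (SE 0.46) and 1.92 (SE 0.46), with edgeR adjusted p 0.00861 and 0.00301, and the WT ranges of day 3 (3.11 to 15.4 CPM) and day 0 met at 3.11 to 3.15 CPM.

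Hbegf, a ligand of EGFR and ERBB4 that binds heparan sulfate, was 173, 202, 213 and 264 CPM in WT at day 0 and 136, 152, 171, 194 and 266 CPM in KO. At day 3 the lowest, median and highest values were 284, 473 and 665 CPM in WT and 285, 455 and 614 CPM in KO. All day 3 libraries were above the day 0 libraries of their genotype. The log2 change at day 3 was 1.00 (SE 0.26, edgeR adjusted p 0.00639) in WT and 1.20 (SE 0.21, edgeR adjusted p 0.000283) in KO. At day 7 it was 0.72 (SE 0.20, edgeR adjusted p 0.00767) in WT and 0.79 (SE 0.30, edgeR adjusted p 0.0383) in KO, where the groups overlapped. The KO call at day 7 was lost without any of d7_KO_420, d7_KO_421, d7_KO_422, d7_KO_423, d0_KO_24, d0_KO_32, d0_KO_53 and d0_KO_54, with edgeR adjusted p of 0.0536 to 0.0848, and also with a minimum mean of 1 CPM (0.0525) or lane 1 alone (0.0559).

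Areg, the ligand of EGFR best known from type 2 immunity and tissue repair, was 106, 108, 116 and 176 CPM in WT at day 0 and 61.5, 70.7, 102, 109 and 204 CPM in KO. At day 3 it ranged from 121 to 316 CPM in WT and from 156 to 328 CPM in KO, overlapping day 0 in both. The log2 change was 1.00 (SE 0.27, edgeR adjusted p 0.00691) in KO and 0.56 (SE 0.25, edgeR adjusted p 0.0881) in WT. The WT change was called without d3_WT_487 (edgeR adjusted p 0.0472) or d0_WT_46 (0.0486), and with no filter on low counts (0.0405). The difference between these 2 changes was 0.42 (95% interval -0.38 to 1.22, edgeR adjusted p 0.648), so Areg was not shown to respond differently in KO. At day 7 Areg was not called in either genotype, with log2 changes of 0.44 (SE 0.28) in WT and 0.64 (SE 0.46) in KO.

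Tgfa, which is made by differentiated colon epithelium, was steady at day 0, with 32.8, 33.1, 34.3 and 36.3 CPM in WT and 30.2, 30.9, 32, 33.0 and 35.7 CPM in KO. The lowest, median and highest values at day 7 were 35.0, 55.8 and 65.1 CPM in WT and 44.7, 49.6 and 72.3 CPM in KO. In KO all day 7 values were above those of day 0, and in WT 1 day 7 library lay within the day 0 range. The log2 change was 0.60 (SE 0.15, edgeR adjusted p 0.00447) in WT and 0.59 (SE 0.12, edgeR adjusted p 0.000772) in KO. At day 3 it was 0.33 in KO (SE 0.12, edgeR adjusted p 0.0332) and 0.080 in WT (SE 0.11, edgeR adjusted p 0.57). The KO call at day 3 was lost without any of 7 libraries, d3_KO_345, d3_KO_385, d3_KO_387, d3_KO_388, d0_KO_24, d0_KO_54 and d0_KO_60, with edgeR adjusted p of 0.0502 to 0.0738. It was also lost with a minimum mean of 1 CPM (0.058), lane 1 alone (0.0873) or the fit of all 38 libraries (0.0506).

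Epgn, a low-affinity EGFR ligand, stayed near the detection floor. It had 0 to 2 counts in every KO library at day 0 and 1, 1, 2 and 13 counts in WT. At day 7 the counts were 7 to 35 in WT and 11 to 33 in KO. Epgn was called higher at day 7 in both genotypes, with edgeR adjusted p 0.0134 in WT and 0.0181 in KO. With day 0 counts this low, it could be tested almost only through its later counts, and only a rise could be called. These p-values are therefore no separate support for a rise. The mean of the KO animals at day 7, 0.422 CPM, was at least 1.70-fold higher than the scaled level of 3 counts averaged over the day 0 KO animals, 0.248 CPM. At day 3 the bound in KO was 1.53-fold, the change was not called (edgeR adjusted p 0.0612), and it was called without d3_KO_385 (0.0267) or d3_KO_392 (0.0407), by DESeq2 (0.0403), with no filter on low counts (0.0464) and in the fit of all 38 libraries (0.0351). The bounds were 1.19-fold at day 3 without d3_KO_345 and 1.41-fold at day 7 without d7_KO_420, and Epgn then had too few counts to be tested. With Epgn at the bounds from all libraries the members' median log2 change in KO was still 0.33 at day 3 and 0.59 at day 7. Btc, which binds EGFR and ERBB4, was not called against day 0 on either day, with log2 changes of -0.11 to 0.32 and levels of 4.49 to 14.7 CPM over all libraries.

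Egfr, the receptor of all 6 ligands, was 61.6, 71.2, 72.6 and 82.8 CPM in WT at day 0 and 55.8, 63.6, 72.5, 72.6 and 78.8 CPM in KO. At day 3 the lowest, median and highest values were 30.4, 45.4 and 52.0 CPM in WT and 42.2, 45.3 and 69.4 CPM in KO. The WT groups did not overlap and the KO groups did. The log2 change was -0.79 (SE 0.13, edgeR adjusted p 0.000164) in WT and -0.52 (SE 0.14, edgeR adjusted p 0.0073) in KO, and -0.69 and -0.46 at day 7 (SE 0.13 and 0.10, edgeR adjusted p 0.000694 and 0.00199). The change differed between genotypes by 0.25 (95% interval -0.17 to 0.67) at day 3 and by 0.27 (95% interval -0.081 to 0.61) at day 7, with edgeR adjusted p 0.601 and 0.506.

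Erbb3, the most abundant receptor per kb, was 428, 558, 562 and 604 CPM in WT at day 0 and 458, 478, 588, 604 and 628 CPM in KO. At day 3 it was 241 to 375 CPM in WT and 246 to 391 CPM in KO, below every day 0 library. The log2 change at day 3 was -0.85 (SE 0.13, edgeR adjusted p 0.000159) in WT and -0.98 (SE 0.12, edgeR adjusted p 1.2e-05) in KO. At day 7 it was -0.48 and -0.70 (SE 0.19 and 0.18, edgeR adjusted p 0.0454 and 0.00518), and the groups overlapped. The WT call at day 7 was lost without d7_WT_370, d7_WT_431, d0_WT_31, d0_WT_41 or d0_WT_46, with edgeR adjusted p of 0.0659 to 0.116, and with no filter on low counts (0.0904). Erbb2, the preferred partner of the other receptors, changed least of the receptors, with log2 changes at day 3 of -0.26 in WT (edgeR adjusted p 0.0593) and -0.31 in KO (edgeR adjusted p 0.0396). The WT change was called without d3_WT_348 (edgeR adjusted p 0.0492) or d3_WT_381 (0.0354), by DESeq2 (0.0176), and in edgeR with DESeq2 size factors (0.0387), a minimum mean of 1 CPM (0.0172) or lane 1 alone (0.0468). The KO call was lost without d3_KO_345, d3_KO_350, d3_KO_387, d3_KO_388, d0_KO_24, d0_KO_53 or d0_KO_60 (0.0585 to 0.123), and with no filter on low counts (0.117). With the library labelled d3_KO_345 left out, 5 members were called between day 3 and day 0 in KO in place of 7. Areg, Ereg, Hbegf and Tgfa then had log2 changes of 0.91, 1.57, 1.19 and 0.26, and Egfr and Erbb3 of -0.60 and -0.95. Without d0_KO_32, 7 members were called in KO at day 3 and 5 at day 7, where the Hbegf call was lost (edgeR adjusted p 0.0794). Without d7_KO_420, 4 of 8 tested were called at day 7, Ereg at 2.05, Tgfa at 0.49, Egfr at -0.50 and Erbb3 at -0.87. The shares of all genes given above come from the fits with all libraries, and no such share is given for these refits.

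**Figure D3:**
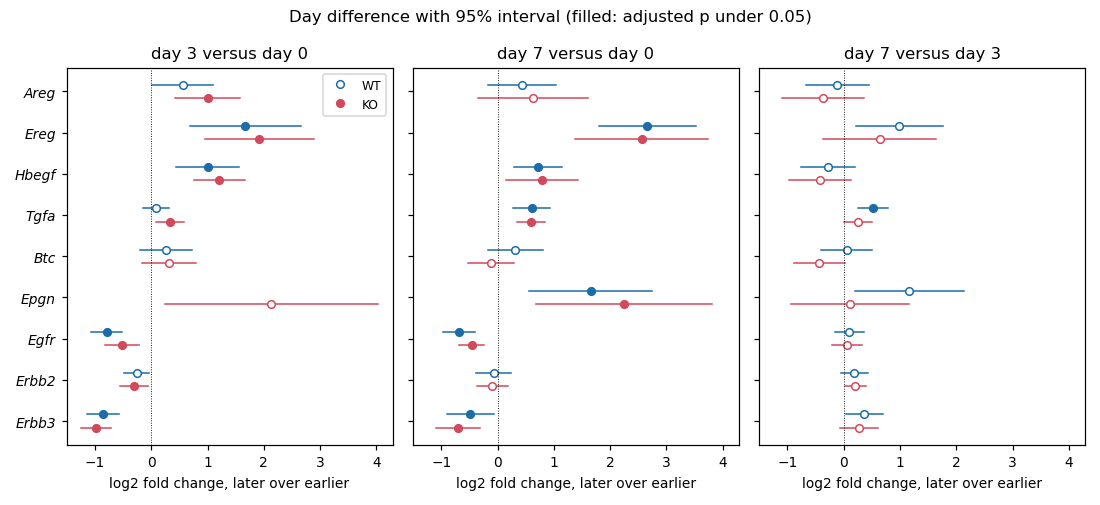
Log2 fold change of each member (rows) between days, with 95% intervals as lines, for WT in blue and KO in red; filled points have an edgeR adjusted p under 0.05. In the 2 comparisons with day 0, called ligands lie right of 0 and called receptors left of it, and between days 7 and 3 the only filled point is Tgfa in WT.

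The same library series holds days 3 and 7, so their comparison is free of the day 0 prefix. In WT, 1 of 9 members was called, Tgfa, higher at day 7, where 19.3% of 15541 genes were called, and 10.6% were called in that direction. Tgfa had a lowest, median and highest value of 32.6, 37.6 and 48.7 CPM at day 3 and 35.0, 55.8 and 65.1 CPM at day 7. The groups overlapped, because d7_WT_386 (35.0 CPM) and d7_WT_370 (45.6 CPM) lay below d3_WT_346 (48.7 CPM). The log2 change was 0.52 (SE 0.13, edgeR adjusted p 0.00942). Ereg (0.99, SE 0.36, edgeR adjusted p 0.0681) and Epgn (1.17, SE 0.45, edgeR adjusted p 0.0844) were not called. Both were called without d3_WT_346, at 1.30 (edgeR adjusted p 0.0147) and 1.66 (0.0123). Ereg was also called without d7_WT_370 (0.0427) or d3_WT_381 (0.0474), and with DESeq2 (adjusted p 0.0315). Erbb2 and Erbb3 were called without d7_WT_386 (edgeR adjusted p 0.0368 and 0.0164).

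In KO, 0 of 9 members were called between days 7 and 3 by edgeR and 0 by DESeq2, where edgeR called 19.3% of 15568 genes. Of these members, 2 had an unadjusted p under 0.05, Tgfa at 0.25 (SE 0.12, edgeR adjusted p 0.16) and Erbb2 at 0.21 (SE 0.091, edgeR adjusted p 0.13). Leaving out the library labelled d3_KO_345 also gave a count of 0, and Tgfa was at 0.31 (edgeR adjusted p 0.0627). The count was 0 without d7_KO_420 as well, with Ereg at 0.14 in place of 0.64. The Tgfa change differed between genotypes by -0.25 (95% interval -0.61 to 0.12), and no member was called for a genotype by day difference between days 7 and 3. By the same test 0 of 16371 genes were called, 0 members had an unadjusted p under 0.05 against 440 genes (2.69%), and DESeq2 called 0 members. The genotype by day differences against day 0 had 0 members called by edgeR or DESeq2 and 0 with an unadjusted p under 0.05, on either day, where edgeR called 0% of 18458 genes at day 3 and 0.00531% of 18830 at day 7. The edgeR counts for these differences were also 0 without d3_KO_345, d7_KO_420 or d0_KO_32, and the Areg and Egfr differences at day 3 were then 0.34 and 0.17 without d3_KO_345.

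Whether loss of Hk2 in the epithelium changed these genes was asked on each day. No member was called between KO and WT on day 0 (8 tested), day 3 (9 tested), day 7 (9 tested) or days 3 and 7 together (9 tested), by edgeR or by DESeq2. Calls were rare everywhere in these comparisons, with 0.0335%, 0.00647%, 0.00642% and 0.0122% of genes called. At an unadjusted p under 0.05 there were 0, 0, 0 and 1 members, against 10.5%, 7.88%, 12.9% and 21.5% of genes. The 1 member was Egfr over days 3 and 7, higher in KO by 0.21 (95% interval 0.031 to 0.39, edgeR adjusted p 0.174). Its log2 difference was -0.037 on day 0, 0.23 on day 3 and 0.20 on day 7, and over days 3 and 7 it was 0.17 (edgeR adjusted p 0.25) once the library labelled d3_KO_345 was left out.

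The precision of the genotype comparison differed between members. Erbb2 was the tightest, at -0.072 (95% interval -0.22 to 0.077) over days 3 and 7, followed by Egfr, given above, and Tgfa at 0.072 (-0.11 to 0.26). Hbegf was at -0.047 (-0.41 to 0.32), Areg at 0.14 (-0.32 to 0.60), Btc at -0.13 (-0.46 to 0.20) and Erbb3 at -0.11 (-0.34 to 0.13). The widest intervals were those of Ereg, at 0.57 (-0.066 to 1.21), and Epgn, at 0.29 (-0.45 to 1.02). Without the library labelled d3_KO_345, which had the highest Ereg, Btc and Epgn of the day 3 libraries (29, 14.7 and 0.967 CPM), Ereg was at 0.41 and Epgn at 0.094. Without d7_KO_420 they were at 0.35 and 0.18, and on day 7 alone Ereg was at -0.088 in place of 0.41 and Areg at -0.31 in place of 0.021. The count of called members was 0 without d3_KO_345, d7_KO_420 or d0_KO_32 in every genotype comparison that used them. The library labelled d3_KO_345 also had the highest summed leukocyte markers of day 3, 84.6 CPM, and the highest sum of the neutrophil markers other than Ly6g, 34.9 CPM. Their part in these levels was not tested.

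**Figure D4:**
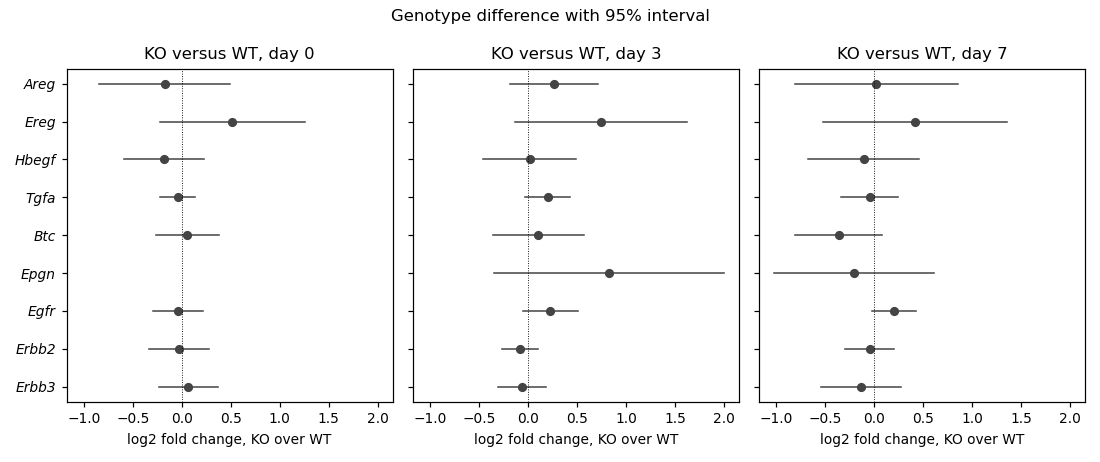
Log2 difference of each member (rows) between KO and WT on days 0, 3 and 7, with 95% intervals as lines; Epgn was not tested on day 0. Every interval spans 0, and the widest is that of Ereg on days 0 and 7 and that of Epgn on day 3.

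Within the groups of days 3 and 7, Hbegf and Areg varied with the animal number that ends each library title. On day 3 the lower numbers ran from d3_KO_345 to d3_WT_353 and the higher from d3_WT_381 to d3_WT_487. On day 7 they ran from d7_WT_356 to d7_WT_370 and from d7_WT_386 to d7_WT_431. These lower and higher ranges, which each held both genotypes, were set after the members' levels had been seen, and the labels do not say what they stand for. Hbegf on day 3 was 473 to 665 CPM (median 589, n = 8) in the lower range and 284 to 433 CPM (median 301, n = 7) in the higher range. On day 7 the order was the opposite, 173 to 277 CPM (median 234, n = 6) in the lower and 379 to 544 CPM (median 451, n = 8) in the higher range. The 2 ranges did not overlap on either day. The day 7 animals of the lower range also overlapped the day 0 animals (136 to 266 CPM), and those of the higher range did not.

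From day 3 to day 7, Hbegf went down by 1.32 on the log2 scale (-1.32, SE 0.11) in the lower range and up by 0.47 (SE 0.11) in the higher range, with genotype as a term. Areg was at -1.40 (SE 0.21) and 0.48 (SE 0.19), with levels of 160 to 328 CPM and 121 to 276 CPM on day 3 and of 64.9 to 138 CPM and 176 to 402 CPM on day 7. The Areg ranges did not overlap on day 7 and did on day 3. Ereg was at -0.23 (SE 0.43) and 1.39 (SE 0.33) and Epgn at -0.23 (SE 0.44) and 1.87 (SE 0.46). Tgfa was at 0.35 (SE 0.12) and 0.41 (SE 0.13), higher on day 7 in both ranges. Erbb3 was at 0.37 (SE 0.13) and 0.23 (SE 0.18), and Btc, Egfr and Erbb2 lay between -0.28 and 0.23 in both ranges. In WT alone Hbegf went from 473 to 665 down to 262 to 277 CPM in the lower range and from 284 to 301 up to 385.7 to 491 CPM in the higher range. In KO it went from 476 to 614 down to 173 to 206 CPM and from 285 to 433 to 379 to 544 CPM.

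The difference of the day change between the ranges was 1.76 (SE 0.17) for Hbegf and 1.82 (SE 0.30) for Areg, and it was 0.025 (SE 0.19) for Tgfa. By an edgeR adjusted p under 0.05, 154 of 16371 genes (0.941%) were called for it, and 2 of the 9 members, Hbegf and Areg, were among them. Without d3_KO_345 the differences were 1.79 for Hbegf, 1.77 for Areg and -0.045 for Tgfa, and 210 of 16331 genes were called with the same 2 members. In the lower range alone the changes without it were -1.34 for Hbegf, -1.33 for Areg and 0.44 for Tgfa, and those of Ereg and Epgn turned to 0.22 and 0.016. Since the ranges were set with these levels in view, this is a description and not a test. Of the 18 immediate early and ERK responsive genes, 9 were called in the same direction as Hbegf, as were 5 of 19 feedback inhibitors, and 0 of 25 adaptors and kinases and 0 of 7 shedding genes were called. These counts are a description as well, since genes that vary with Hbegf or Areg would separate by the same ranges. For Egr1, an ERK-induced transcription factor, the medians were 1620 CPM (lower) and 959 CPM (higher) on day 3 and 673 and 1025 CPM on day 7. Errfi1, which encodes an inhibitor of EGFR kinase, had 268 and 183 CPM on day 3 and 108 and 241 CPM on day 7. Both were picked after their values were seen.

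Total counts were 38.3 to 50.1 M and 26.7 to 50.0 M in the lower and higher ranges on day 3, and 45.6 to 60.6 M and 25.2 to 48.0 M on day 7. Counts from mitochondrial genes were 10.8% to 17.6% and 6.25% to 41.7% on day 3, and 10.9% to 15.2% and 11.3% to 26.6% on day 7. Summed fibroblast and smooth muscle markers (9 of 9 detected) were 2.61 to 121 CPM and 2.00 to 26.3 CPM on day 3, and 54.1 to 207 CPM and 5.01 to 68.1 CPM on day 7. The part of these measures in the Hbegf and Areg levels was not tested. With day by range terms in the comparison of KO with WT over days 3 and 7, 0 of 9 members were called, against 82 of 16371 genes (0.501%). With range as a term, Tgfa (0.55, edgeR adjusted p 0.00446) and Epgn (1.41, edgeR adjusted p 0.04) were called between days 7 and 3 in WT, where 20.6% of genes were called, and 0 members in KO, where 19.1% were. Without d3_KO_345 the count was 0 for KO against WT, where 154 of 16331 genes were called. Between days 7 and 3 in KO it was then 1, Tgfa at 0.32 (edgeR adjusted p 0.0369), where 3565 of 15413 genes were called.

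**Figure D5:**
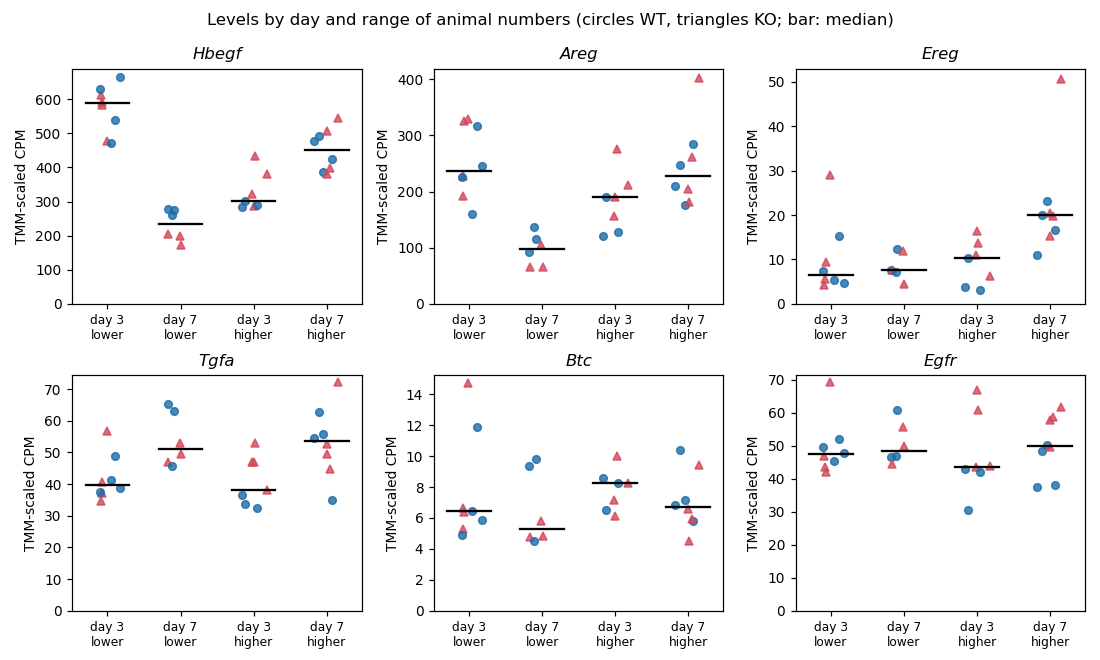
TMM-scaled CPM (linear axes from 0) of 6 members on days 3 and 7, split by the lower and higher range of animal numbers; circles are WT, triangles KO and bars medians. The Hbegf median is lower on day 7 than on day 3 among the lower numbers and higher among the higher ones, whereas the Tgfa median is higher on day 7 in both.

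The genes whose levels varied most like those of each member were taken over the 29 libraries of days 3 and 7, after each group's mean log2 CPM was subtracted. These correlations share library, depth and the ranges above. For Areg they were Errfi1 (Pearson r 0.961), Ifrd1 (0.96) and Rnd3 (0.943), and for Hbegf Slc25a25 (0.945), Arc (0.945) and Ppp1r15a (0.924). Ereg varied most like Epha2 (0.918), Rap2b (0.912) and Krt7 (0.873), and Tgfa like Pgap1 (0.935), Fkbp5 (0.917) and Nploc4 (0.913). For Btc the leading gene was Ly6g (0.89), which at day 0 lay well above the other neutrophil markers, then Wsb2 (0.886) and Tead4 (0.882). Among receptors, Egfr varied most like Sytl2 (0.897), Lats1 (0.871) and Smad3 (0.848), Erbb2 like Mtmr14 (0.873), Ctdsp2 (0.867) and Hectd3 (0.865), and Erbb3 like Ctdsp2 (0.908), Dnajb12 (0.904) and Crebrf (0.891). Epgn was too low to be included. Without d3_KO_345 the 3 leading genes of Areg, Hbegf, Tgfa and Egfr were the same, and 2 of the 3 were for Ereg, Btc, Erbb2 and Erbb3.

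Between members, Erbb2 and Erbb3 had the highest correlation, with a Pearson r of 0.899 (Spearman rho 0.909). Hbegf and Areg had 0.818 (0.763), Areg and Ereg 0.75 (0.695), and Tgfa and Btc 0.701 (0.632). Areg and Btc, of the same cluster, had 0.284 (0.175), and Hbegf and Tgfa 0.111 (0.0892). The receptors Erbb2 and Erbb3, which varied together, had an r of -0.16 and -0.0073 with Egfr. Without d3_KO_345 these Pearson r were 0.897 for Erbb2 and Erbb3, 0.824 for Hbegf and Areg, 0.751 for Areg and Ereg, and 0.66 for Tgfa and Btc. They were 0.237 for Areg and Btc and 0.104 for Hbegf and Tgfa, and Egfr had -0.066 with Erbb2 and 0.069 with Erbb3.

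Of the other family genes, Egf was 3.69 to 14 CPM over all libraries and fell between days 3 and 7 in WT, by a log2 change of -0.72 (SE 0.13, edgeR adjusted p 0.00152). Nrg1, a ligand of ERBB3 and ERBB4, had at most 2 counts at day 0, at most 20 at day 3, and 0.0938 to 2.59 CPM at day 7. Nrg4 was 0.888 to 2.45 CPM, Nrg2 had at most 8 counts, Nrg3 had 0 counts in every library, and Erbb4 had at most 1 count. The 3 counts taken as the floor thus were not reached for Erbb4 in any library.

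Values of the other pathway genes use all libraries, except where the animal number ranges are named. Among 7 genes of ligand shedding, 1 rose and 1 fell between days 3 and 7 in each genotype. Adam10, which sheds EGF and betacellulin, was the one that rose, by 0.49 (SE 0.09) in WT and 0.42 (SE 0.09) in KO, and Rhbdl2, a rhomboid protease, fell by 0.74 on the log2 scale (-0.74, SE 0.11) in KO. Of 19 feedback inhibitors, 0 rose and 3 fell in WT and 1 fell in KO. Spry2, an inhibitor of receptor tyrosine kinase signalling, had -0.87 (SE 0.20) in WT and -0.90 (SE 0.16) in KO, and Socs5 -0.86 (SE 0.17) in WT. Of 25 adaptors and kinases, 2 rose and 1 fell in each genotype, and Gab2 was higher by 0.48 in WT and 0.73 in KO and Akt2 by 0.19 in KO. Of 18 immediate early and ERK responsive genes, 2 rose and 1 fell in WT (Ier3 1.17, Ccnd1 0.52, Etv5 -0.67), and 1 rose and 3 fell in KO (Ccnd1 0.85, Etv4 -1.33 and Junb -0.62 among them). Over the 71 tested pathway genes 16.9% were called in WT, near the 19.3% of all genes, and the lists' medians lay between -0.49 and 0.14 in both genotypes. Within the animal number ranges, set after seeing the data, the values differed (genotype as a term), which is a description and not a test. Of 72 tested pathway genes, 11 rose and 27 fell in the lower range, and 9 rose and 5 fell in the higher. Of all genes, 32.3% and 16.6% were called. Of the immediate early and ERK responsive genes, 1 rose and 13 fell, and 4 rose and 1 fell. Of the feedback inhibitors, 0 rose and 11 fell, and 2 rose and 1 fell. Spry2 was at -1.40 and -0.42, and Junb at -1.02 and -0.15.

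Against day 0, 13 of 18 immediate early and ERK responsive genes rose and 1 fell at day 3 in WT, and 16 rose and 1 fell in KO, with list medians of 1.02 and 1.05. At day 7, 12 rose and 2 fell in WT and 11 rose and 2 fell in KO, with medians of 0.86 and 0.87. The background for these counts, and for the feedback inhibitors below, is the 46% to 56.9% of genes called above. By direction it was 20.4% to 27.8% higher and 23.7% to 29.2% lower. Of 19 feedback inhibitors, 4 rose and 4 fell in WT and 9 rose and 3 fell in KO at day 3, and 2 rose and 5 fell in WT and 3 rose and 3 fell in KO at day 7. In the comparisons of KO with WT, 0 of the 75 pathway genes were called on any day.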

How the data were processed

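Intestinal epithelial RNA was sequenced as pairs of 50 bases. Per the file headers, the authors made raw gene counts with featureCounts 1.6.2 without strand, and the submitters' processing notes name Trim Galore, STAR, GRCm38 and featureCounts 1.5.2. The deposited counts of 2 lanes per library were summed, and no counts were normalised before deposit. Groups came from the labelled genotype and day. Genes were tested with edgeR 4.0.16 (R 4.3.3, quasi-likelihood, TMM, filterByExpr by group) on the compared groups only, with Benjamini-Hochberg adjustment over all genes and a threshold of 0.05. The code was tested on simulated data. DESeq2 1.42.0, other filters and scalings, lane 1 alone, a fit of all 38 libraries and leaving out each animal were alternatives.

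All 9 members are described. Other pathway genes were named by a rule, up to 4 per direction with the largest log2 change among those called with a mean log2 CPM of at least 1. Members and lists were chosen with earlier results of these data known, and the animal number ranges after seeing these data. Intervals are 95% intervals of fitted changes, and the floor of 3 counts covers counting error only.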

Additional observations from a re-analysis of the deposited data

Results flagged for a closer look

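In 54 combinations of member and group, 8 had an extreme library whose gap to its nearest neighbour was large for the range of the group. Chance alone flags about 1 in 20 such groups. The library d7_KO_420 was highest for 4 members, with Ereg at 50.6 CPM (next 20.5), Tgfa at 72.3 (next 52.9), Btc at 9.42 (next 6.58) and Erbb3 at 609 (next 412). That library also had the highest sum of the neutrophil markers other than Ly6g, 1353 CPM, and 260.5 CPM of Hk2, within the WT range. The part of these in its levels was not tested. The library d0_WT_46 was highest for Areg, at 176 CPM (next 116), and for Epgn, at 0.261 CPM (next 0.0911), and it was the deepest day 0 library, at 44.9 M counts. The library d3_WT_346 was highest for Epgn, at 0.579 CPM (next 0.253). The library d7_WT_386 was lowest for Erbb2, at 148 CPM (next 219).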

How the results depend on the processing

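The count of called members stayed at 0 in each comparison of KO with WT and each genotype by day difference, under all alternatives run. Between days 7 and 3 in WT it was 1, and 2 with DESeq2, 2 with animal number range as a term (chosen after seeing the data), and 1 to 3 when each animal was left out. Against day 0, leaving out each animal gave 5 to 8 members at day 3 and 4 to 6 at day 7 in KO, and 4 to 5 and 5 to 6 in WT. DESeq2 called 8 and 6 in KO and 5 and 6 in WT. For these alternatives no share of all genes is given, so the counts are not set against a background. No call changed direction under the alternatives run. No paired analysis was possible because the replicate numbers are animal numbers and no animal is in 2 groups. Depth limits Epgn, which had 0 to 2 counts in 8 of the 9 day 0 libraries and 13 in d0_WT_46.

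These log2 values, none of them called, changed sign when 1 animal was left out, and the ranges are over all animals of the comparison. For KO versus WT on day 0 they were Areg -0.53 to 0.026, Btc -0.0093 to 0.12, Egfr -0.10 to 0.040, Erbb2 -0.094 to 0.051 and Erbb3 -0.024 to 0.14. On day 3 they were Btc -0.074 to 0.26 and Hbegf -0.072 to 0.14, and on day 7 Areg -0.31 to 0.17, Ereg -0.088 to 0.59 and Hbegf -0.26 to 0.0063. Over days 3 and 7 they were Areg -0.0019 to 0.22 and Hbegf -0.11 to 0.0089. Between days 7 and 3 they were Areg -0.28 to 0.032 and Btc -0.031 to 0.20 in WT and Epgn -0.17 to 0.47 in KO. Between days 7 and 0, Erbb2 was -0.17 to 0.013 in KO and -0.12 to 0.037 in WT. For genotype by day, they were Egfr -0.080 to 0.047 and Erbb2 -0.053 to 0.079 between days 7 and 3, and Btc -0.15 to 0.19 and Ereg -0.11 to 0.55 between days 3 and 0. Between days 7 and 0 they were Areg -0.13 to 0.58, Ereg -0.60 to 0.13, Hbegf -0.085 to 0.27, Tgfa -0.11 to 0.045, Epgn -0.27 to 1.10 and Erbb2 -0.10 to 0.077.

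Other settings also turned the sign of values near 0 that were not called. With lane 1 alone, Tgfa was at 0.034 for KO versus WT on day 0, and the genotype by day values were -0.046 for Btc (days 3 and 0), 0.36 for Ereg, -0.094 for Tgfa and -0.037 for Erbb2 (days 7 and 0). The last comparison also gave -0.021 for Tgfa and -0.033 for Erbb2 in the fit of all 38 libraries, and for Erbb2 -0.0017 with DESeq2 size factors and -0.0018 with DESeq2. With a mean CPM of at least 1, Tgfa was at -0.00039 between days 3 and 0 in WT. With no filter, values between days 7 and 0 were 0.030 for Erbb2 in WT, 0.024 for Erbb2 in KO and 0.0026 for Btc in KO. The cause was not tested.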
